A study of Mus musculus with 16 samples.

Results

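The CD28 response of naive CD4+ T cells was compared between wild-type mice and mice lacking the transcription factor Dec1, which the gene Bhlhe40 encodes. The quantity described is the difference of the CD28 effects: the log2 change from anti-CD3 to anti-CD3 plus anti-CD28 in knockout cells (KO), minus the same change in wild-type cells (WT). It draws on all 16 of the 16 arrays of the series and on the 21789 of 35556 probes that carry a single gene symbol. Of their genes, 16427 were bright enough to be tested.

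Cells of the strain B6 had been sorted from spleen and lymph nodes as CD4+CD62LhiCD25-, a gate for naive cells without the IL-2 receptor chain CD25. The knockout lacks Dec1, and which part of the gene was removed, in which cells, and the age of the animals are not given in the sources used here. Sorted cells were activated for 24 h with latex beads bearing either anti-CD3 alone or anti-CD3 together with anti-CD28. The 4 groups WT_CD3, WT_CD3CD28, KO_CD3 and KO_CD3CD28 had 4 arrays each, numbered 1 to 4. No label says that these came from separate animals, so the spread behind each p-value is that of these samples, and part of it may be technical.

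Anti-CD3 stands in for antigen at the T cell receptor. CD28 is the costimulatory receptor that professional antigen-presenting cells engage, and its signal is known to raise IL-2, nutrient uptake, survival genes and entry into the cell cycle. Dec1 is a basic helix-loop-helix protein that binds E-box DNA, is known as a repressor within the circadian clock, and is itself induced when T cells are activated. The question put here is whether cells without Dec1 answer CD28 differently.

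No gene passed the test of that difference. limma called 0 of 16427 genes higher and 0 lower at a Benjamini-Hochberg adjusted p under 0.05, a background of 0%, and the smallest adjusted p was 0.905. The unadjusted p was under 0.05 for 867 genes (5.28%), of which 529 (3.22%) had the larger CD28 effect in knockout and 338 (2.06%) in wild type. With each array centred on its median the split was 614 of 826. In other fits of the same arrays the number called was 1 with each genotype and replicate number as a block. It was 80 when replicates 1 and 2 were taken alone. Further fits were chosen after the data were seen. They called 16 genes with a term for the set of replicate numbers and 15 when the difference was taken within each replicate number. The latter fit matches wild-type and knockout samples by number alone, and no label pairs them.

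The same fit called many genes for CD28 itself. The effect was called higher for 2630 genes (16%) and lower for 2140 (13%) in wild type, and higher for 3357 (20.4%) and lower for 2888 (17.6%) in knockout. The standard error of the difference had a median of 0.15 over all genes, against 0.11 for either effect. Its 95% interval, which is not adjusted for the number of genes, had a median half-width of 0.33 on the log2 scale. That interval lay within a 2-fold difference in either direction for 15706 genes (95.6%). Among the 4770 genes called for CD28 in wild type it did so for 4422 (92.7%). Of the lists described below, it did so for 8 of 29 replication fork genes and 13 of 25 origin licensing genes. It did so for 21 of 41 kinesin, kinetochore, condensin and spindle genes and 34 of 38 proteasome genes. Over all genes the difference had a median of 0.001, with the middle of the distribution between -0.11 and 0.13 (25th and 75th percentiles), while 25 genes exceeded 1 and 2 fell below -1. Its upper tail reached further than its lower one, with a 95th percentile of 0.38 and a 5th percentile of -0.27.

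**Figure D1:**
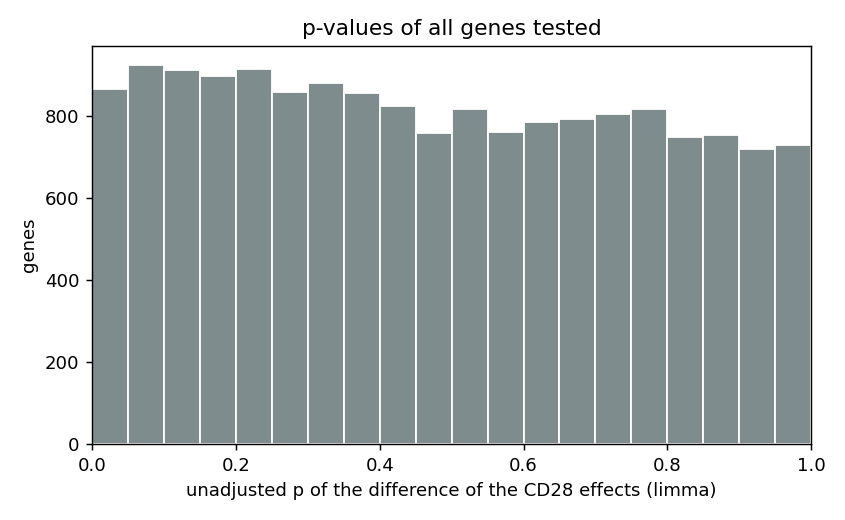
Number of the 16427 tested genes (vertical axis) in each interval of the unadjusted limma p of the difference of the CD28 effects (horizontal axis, steps of 0.05). The lowest interval holds 867 genes and its neighbour 925, so small p-values do not pile up.

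Bhlhe40 itself comes first, as the gene the knockout targets. In wild type it was at 8.02, 7.63, 7.59 and 7.0 (log2 RMA signal, replicates 1 to 4) under anti-CD3 and at 10.07, 10.03, 9.38 and 8.55 with anti-CD28 added. In knockout it was at 5.57, 5.95, 5.43 and 5.18, and at 6.07, 5.88, 5.86 and 5.73. The wild-type arrays were higher with anti-CD28 than without it and the knockout arrays stayed near background in both stimuli. Near background means a group mean at or below the 40th percentile of all probes, which lay between 6.25 and 6.44. The CD28 effect was 1.95 in wild type and 0.35 in knockout, and the difference was -1.59 (SE 0.39, 95% interval -2.41 to -0.78, limma adjusted p = 0.905). With each genotype and replicate number as a block its adjusted p was 0.0447, and it was the only gene called in that fit.

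Cell division genes are given first among the lists. The next 3 genes are shown with their promoters: Orc1 and Mcm5 are the 2 members of the origin licensing list with the smallest p, and Dtl, which marks licensing factors for destruction in S phase, was picked after its values were seen. Each window holds the 250 bases before the RefSeq start of the gene in mouse assembly GRCm38.p6, read in the direction of transcription, for Orc1 chr4:108579204-108579453 (plus strand), for Mcm5 chr8:75109259-75109508 (plus strand) and for Dtl chr1:191575545-191575794 (minus strand). Capitals mark matches on either strand to any of the E2F words TTTCCCGC, TTTGGCGC, TTTGCCGC and TTTCGCGC.
Orc1: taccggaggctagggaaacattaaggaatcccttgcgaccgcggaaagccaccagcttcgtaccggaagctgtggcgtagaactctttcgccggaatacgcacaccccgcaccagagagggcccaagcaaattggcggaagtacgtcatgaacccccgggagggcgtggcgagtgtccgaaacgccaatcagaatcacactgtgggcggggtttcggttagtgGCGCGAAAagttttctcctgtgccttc
Mcm5: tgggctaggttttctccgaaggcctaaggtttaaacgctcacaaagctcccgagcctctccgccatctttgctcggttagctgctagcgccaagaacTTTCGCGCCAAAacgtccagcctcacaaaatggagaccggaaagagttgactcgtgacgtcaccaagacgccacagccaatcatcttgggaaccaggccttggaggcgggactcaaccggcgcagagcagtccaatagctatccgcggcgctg
Dtl: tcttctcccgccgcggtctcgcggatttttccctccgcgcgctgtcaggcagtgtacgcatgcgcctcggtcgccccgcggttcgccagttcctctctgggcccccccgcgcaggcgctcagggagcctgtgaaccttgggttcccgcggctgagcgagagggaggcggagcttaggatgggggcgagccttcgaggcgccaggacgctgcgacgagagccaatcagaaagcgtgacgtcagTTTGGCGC
Orc1 held 1 match, Dtl 1 and Mcm5 2 that overlap, and none of the windows held the E-box word CACGTG. The full windows ran from 250 bases before the start to 50 after it. Over these an E2F word occurred in 11 of 20 origin licensing genes with a window (55%) and 8 of 26 replication fork genes (30.8%). It occurred in 14.3% of kinesin, kinetochore, condensin and spindle genes, 12.1% of ribosome biogenesis genes and 9.38% of proteasome genes. In naive and quiescence genes and in circadian clock genes the share was 0%, and 517 of 12917 tested genes (4%) held an E2F word. The E-box word occurred in 26.9% of replication fork genes, 24.2% of ribosome biogenesis genes, 26.7% of circadian clock genes and 10.5% of tested genes. It occurred in 10% of origin licensing genes, 9.38% of proteasome genes, 7.41% of naive and quiescence genes and 5.71% of kinesin, kinetochore, condensin and spindle genes, so lists with a positive median lay on both sides of the share over tested genes. A match describes the letters of the window, not a bound site.

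Orc1, the largest subunit of the origin recognition complex that marks where replication can begin, had the smallest p of any gene. It was at 7.49, 7.36, 7.83 and 7.29 in WT_CD3 and at 6.67, 6.68, 6.79 and 6.76 in KO_CD3. With anti-CD28 it stood at 9.67, 9.79, 9.47 and 9.51 in wild type and at 9.76, 9.68, 9.55 and 9.52 in knockout. The genotypes were apart under anti-CD3, with knockout lower, and overlapped with anti-CD28. CD28 raised it by 2.12 in wild type and by 2.90 in knockout, a difference of 0.78 (SE 0.15, 95% interval 0.46 to 1.11, limma adjusted p = 0.905). With a term for the set of replicate numbers and its product with the stimulus Orc1 was called (limma adjusted p = 0.0252). Within replicate numbers it was not (adjusted p = 0.0816). Both of these fits, also quoted for genes below, were chosen after the data were seen.

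Mcm5, a subunit of the MCM helicase loaded at origins, was at 9.39, 9.24, 9.82 and 9.18 in WT_CD3 and at 8.36, 8.11, 8.73 and 8.33 in KO_CD3. With anti-CD28 the values were 10.51, 10.52, 10.61 and 10.06 in wild type and 10.62, 10.46, 10.12 and 10.05 in knockout. Here too the groups were apart without anti-CD28 and overlapped with it. The effects were 1.01 and 1.93, and their difference was 0.92 (SE 0.24, 95% interval 0.41 to 1.42, limma adjusted p = 0.905). It was called when the difference was taken within each replicate number (limma adjusted p = 0.0379) and with replicates 1 and 2 alone (adjusted p = 0.0168). With the term for the set of replicate numbers Mcm5 was not called (limma adjusted p = 0.0891).

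Dtl stood at 8.34, 8.41, 9.06 and 8.42 in WT_CD3 and at 6.84, 6.64, 8.0 and 7.49 in KO_CD3. With anti-CD28 it was at 10.07, 10.15, 10.07 and 10.22 in wild type and at 10.21, 10.12, 10.08 and 10.13 in knockout. The 8 arrays with anti-CD28 lay within a narrow band, and the genotypes were apart only without it. The CD28 effects were 1.57 and 2.89 and differed by 1.32 (SE 0.31, 95% interval 0.67 to 1.98, limma adjusted p = 0.905). In WT replicate 3, whose anti-CD3 array was the highest of its group, the effect was 1.01, against 1.73 to 1.8 in the other three.

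**Figure D2:**
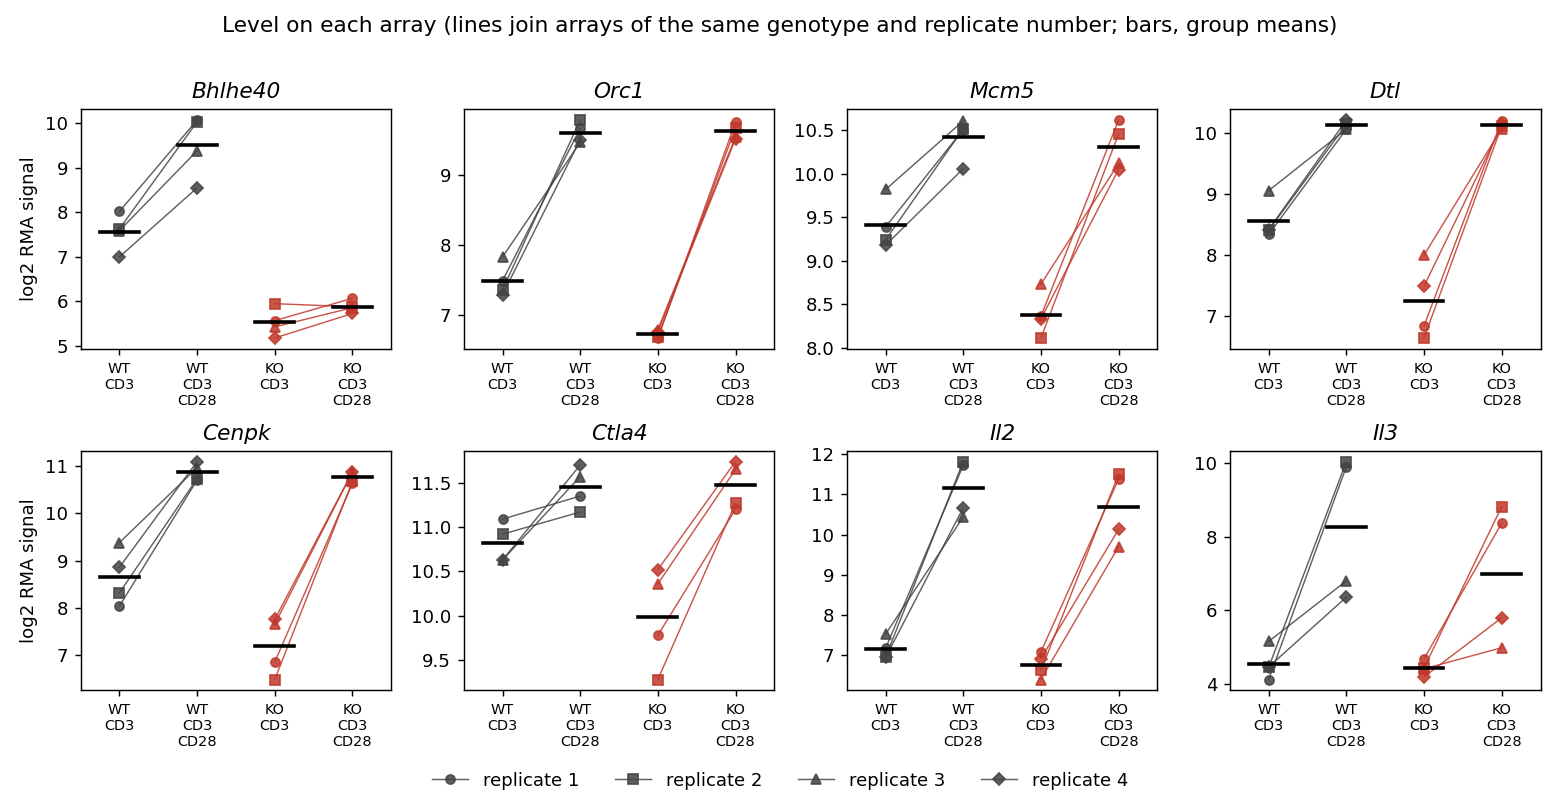
Level of 8 genes on each of the 16 arrays (vertical axes, log2 RMA signal, scaled per gene), with wild type in grey and knockout in red. Lines join arrays of the same genotype and replicate number and black bars are group means. Orc1, Mcm5, Dtl, Cenpk and Ctla4 are lower in knockout under anti-CD3 and overlap with anti-CD28, while Il2 and Il3 overlap under anti-CD3.

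The origin licensing list, which holds the origin recognition complex, the MCM helicase and their loaders, had 25 tested genes. The difference was above 0 in 21 of them, with a median of 0.50, beside 8270 of 16427 genes above 0 (50.3%) and a median of 0.001 over all genes tested. The median CD28 effect was 1.11 in wild type and 1.47 in knockout. None of its genes was called for the difference, and 12 had an unadjusted p under 0.05 in the direction of a larger knockout effect, where 3.22% of all genes did. In 10 of the 25 (40%) the knockout effect exceeded the wild-type effect in all 4 replicate numbers, against 1738 of all genes (10.6%), and 9.57% of all genes had the reverse. Several genes of the list share a complex and the lists were chosen with earlier results of these arrays known, so these counts describe the genes and are no test.

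Replication fork and dNTP supply genes, from clamp loaders and polymerases to the enzymes that make deoxynucleotides, had the largest list median. Of 29 tested, 28 were above 0 with a median of 0.61, and 18 (62.1%) were above 0 in all 4 replicate numbers. Averaged over the list, the CD28 effect was 1.34, 1.40, 0.91 and 1.13 in WT replicates 1 to 4 and 1.96, 2.23, 1.36 and 1.59 in knockout. These means overlap, since KO replicate 3 lay below WT replicate 2. The clamp loader subunit Rfc3 differed by 0.86 (SE 0.23) and the ligase Lig1, which joins Okazaki fragments, by 0.81 (SE 0.23). Lig1 was called with the term for the set of replicate numbers (limma adjusted p = 0.0492) but not within replicate numbers (adjusted p = 0.106). For both genes, the 4 knockout effects lay above the 4 wild-type effects. That held for 2.46% of all genes (4.8% were apart in either direction).

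Kinesins, kinetochore, condensin and spindle genes, which move and hold chromosomes in mitosis, showed a median difference of 0.46 over 41 genes, 35 of them above 0. Near background in KO_CD3 were 11 of the 41, against 3 in WT_CD3, and for those the knockout effect is a lower bound. Cenpk, a kinetochore subunit, was at 8.04, 8.32, 9.38 and 8.86 in WT_CD3 and at 6.86, 6.49, 7.66 and 7.76 in KO_CD3. It was at 10.70 to 11.09 with anti-CD28 in wild type and at 10.63 to 10.87 in knockout. The genotypes were apart under anti-CD3 alone, and the CD28 effects of 2.22 and 3.57 differed by 1.34 (SE 0.38, 95% interval 0.54 to 2.15, limma adjusted p = 0.905). The proliferation marker Mki67 differed by 0.74 (SE 0.39), with a 95% interval from -0.08 to 1.56.

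Other cell cycle genes had smaller or less even differences. Mitotic kinases and cyclins had a median of 0.18 over 23 genes, 16 above 0. The checkpoint kinase Bub1 was at 1.30 or more, since it was near background in KO_CD3. DNA repair and checkpoint genes had a median of 0.26, with 25 of 28 above 0. Tipin, a fork protection factor, differed by 0.79 (SE 0.23). It was called with the term for the set of replicate numbers (limma adjusted p = 0.0492) but not within replicate numbers (adjusted p = 0.121). Among cyclins, CDKs and their inhibitors the median was 0.07, and the CDK-binding protein Cks1b was at 0.78 (SE 0.18, 95% interval 0.39 to 1.17). Cks1b was called within replicate numbers (limma adjusted p = 0.0354) but not with the term for their set (adjusted p = 0.0751). E2F and pocket proteins, which switch S phase genes on and off, had a median of 0.02 over 13 genes. E2f8, near background in KO_CD3, differed by at least 1.00 (SE 0.40). E2f8 was called within replicate numbers (limma adjusted p = 0.0325) but not with the term for their set (adjusted p = 0.0784). E2f3 differed by 0.80 on the probe used but by -0.01 on its other probe.

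Genes of growth and biosynthesis showed small differences of the same sign. In ribosome biogenesis, 37 of 38 genes were above 0 with a median of 0.32, and the list means were 0.59, 0.70, 0.47 and 0.52 in wild type and 0.92, 0.98, 0.71 and 0.92 in knockout. Those 8 means did not overlap between genotypes, although WT replicate 2 and KO replicate 3 were only 0.70 and 0.71. Rrs1, an assembly factor of the large ribosomal subunit, was at 9.24, 8.77, 9.14 and 8.83 in WT_CD3 and at 8.35, 8.35, 8.29 and 8.33 in KO_CD3. With anti-CD28 it was at 9.83, 9.64, 9.60 and 9.23 and at 9.74, 9.66, 9.63 and 9.61. It was lower on each knockout array than on any wild-type array under anti-CD3 and overlapped with anti-CD28, and the effects of 0.58 and 1.33 differed by 0.75 (SE 0.17, 95% interval 0.40 to 1.10, limma adjusted p = 0.905). Myc, which drives this class of genes, had effects of 0.52, 0.55, 0.54 and 0.87 in wild type and 1.10, 1.09, 1.10 and 1.13 in knockout. These did not overlap, and differed by 0.48 on average (SE 0.18, 95% interval 0.10 to 0.87, limma adjusted p = 0.905).

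Mitochondrial, protein turnover and metabolic lists had medians from 0.15 to 0.31. The difference was above 0 in 43 of 44 mitochondrial ribosomal proteins (median 0.31), in 37 of 37 genes of the respiratory chain and ATP synthase (0.28) and in 38 of 38 proteasome genes (0.25). Aminoacyl-tRNA synthetases were above 0 in 17 of 17 genes (0.27), nucleotide and polyamine synthesis genes in 21 of 22 (0.28) and glucose transport and glycolysis genes in 18 of 19 (0.30). Amino acid transporters were above 0 in 11 of 15 (0.23), serine, folate and ATF4 genes in 16 of 23 (0.16), cholesterol and fatty acid synthesis genes in 24 of 29 (0.16) and chaperonins and heat shock genes in 23 of 24 (0.15). Members with the smallest p in their lists were Mrpl36 at 0.51 (SE 0.16), the complex I carrier protein Ndufab1 at 0.38 (SE 0.13), the proteasome lid subunit Psmd6 at 0.33 (SE 0.12), the glycolytic enzyme Tpi1 at 0.72 (SE 0.27) and the serine synthesis enzyme Psat1 of the serine, folate and ATF4 list at 0.59 (SE 0.20). None had an adjusted p below 0.905. Averaged over the mitochondrial ribosomal proteins, the CD28 effect was 0.55, 0.70, 0.41 and 0.29 in wild type and 0.93, 1.05, 0.49 and 0.70 in knockout, so KO replicate 3 lay among the wild-type values. After quantile normalization the medians of these lists ran from 0.06 (chaperonins and heat shock) to 0.24 (mitochondrial ribosomal proteins). With each array centred on its median they ran from 0.19 to 0.35. Over all genes tested the medians were then 0.01 and 0.04. Under a stricter brightness filter 618 genes had an unadjusted limma p under 0.05, and 462 of them had the larger CD28 effect in knockout.

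**Figure D3:**
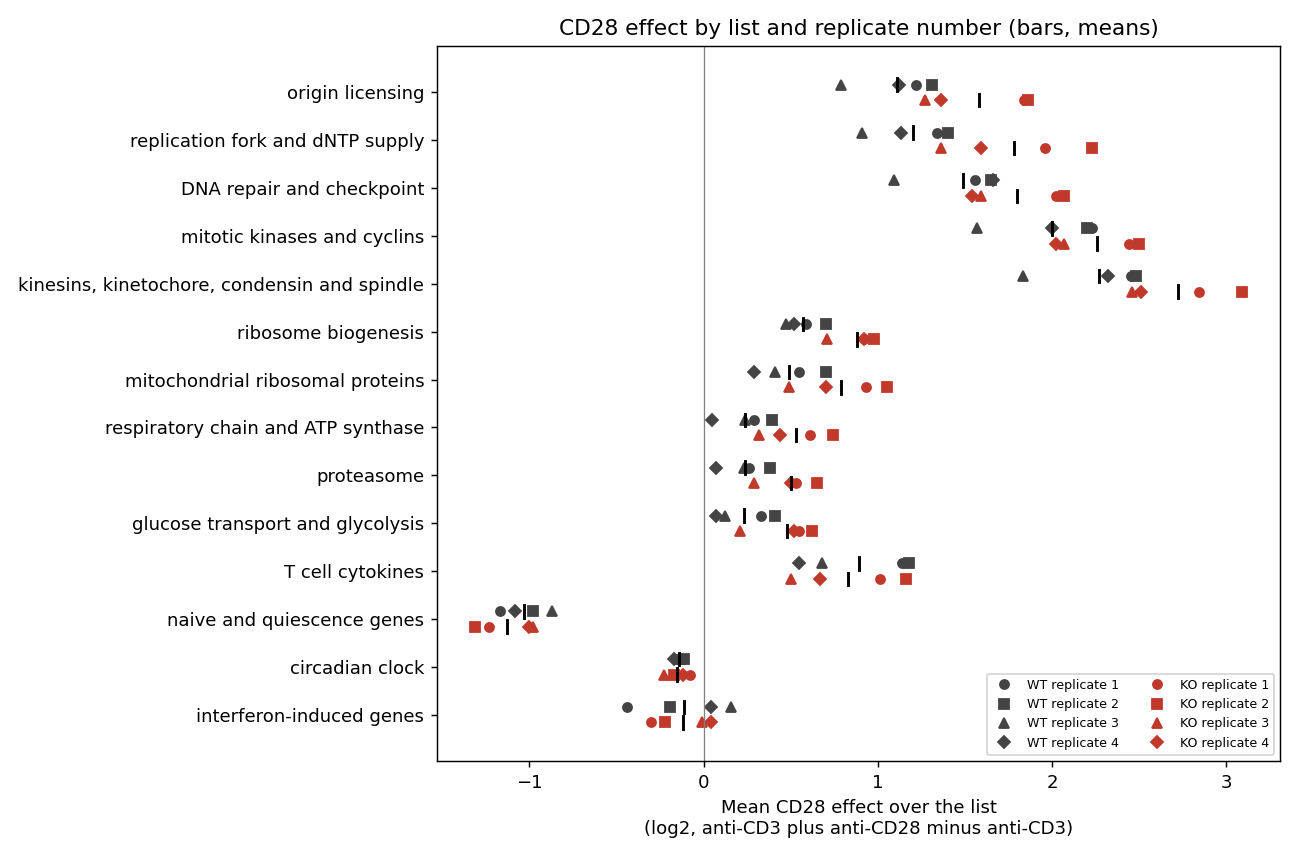
Mean CD28 effect over the genes of 14 lists (horizontal axis, log2) in each replicate number, with wild type in grey, knockout in red and bars for the mean of 4. Knockout means lie to the right for the replication, mitosis and biosynthesis lists, while cytokines, clock and interferon-induced genes lie together. Replicate 3 is the lowest, or nearly so, in both genotypes for the cell division lists.

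Among the 19 tested cytokines the 4 effects of the genotypes overlapped in all but Il13, a cytokine of type 2 immunity, which differed by -0.20 (SE 0.11). That is 1 of 19, near the 4.8% of all genes that were apart in either direction. Il13 was named after its values were seen. Il2, the T cell growth factor, had effects of 4.56, 4.87, 2.92 and 3.73 in wild type and 4.30, 4.88, 3.31 and 3.22 in knockout. The difference was -0.09 (SE 0.52), and its interval from -1.19 to 1.01 reaches past a 2-fold difference in both directions. Lif, a cytokine of the IL-6 family, differed by 0.09 (SE 0.28), from effects of 2.59 and 2.68, the latter a lower bound since Lif was near background in KO_CD3. Ifng, the macrophage-activating cytokine, differed by -0.19 (SE 0.30).

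Il3, a growth factor for blood cell precursors, was near background under anti-CD3 in both genotypes. With anti-CD28 it was at 9.89, 10.03, 6.8 and 6.36 in wild type and at 8.36, 8.81, 4.99 and 5.80 in knockout. Replicates 1 and 2 were far above replicates 3 and 4 in either genotype, and knockout was the lower in each replicate number. The difference was -1.16 (SE 1.16, 95% interval -3.62 to 1.30, adjusted p = 0.917). With replicates 1 and 2 alone it was -1.64 and was called (limma adjusted p = 0.0156). Csf2, which encodes GM-CSF, was near background in WT_CD3, KO_CD3 and KO_CD3CD28, so its effects are bounded only loosely. They showed the same split, at 1.96, 1.95, 0.21 and 0.36 in wild type and 1.57, 1.57, -0.39 and 0.15 in knockout. Its effect was lower in knockout in each replicate number, with a fitted difference of -0.40 (SE 0.69, adjusted p = 0.956). Over the 19 tested cytokines the median difference was -0.09, and 7 were above 0. In 6 of the 19 the knockout effect was the lower in all 4 replicate numbers, where 9.57% of all genes showed this, and in 1 it was the higher. Near background were 8 of the 19 in WT_CD3, 4 in WT_CD3CD28, 9 in KO_CD3 and 4 in KO_CD3CD28. For such genes the effects are bounds, so the sign of their difference is not settled. Tnf, the inflammatory cytokine, had the smallest p of the list at 0.87 (SE 0.33, 95% interval 0.16 to 1.57, limma adjusted p = 0.905), from effects of 0.08 and 0.95. Its wild-type effects ran from -0.81 in replicate 4 to 0.49 in replicate 1. Il10 was too dim to be tested.

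No receptor gene was called in the fit of all arrays. In the list of costimulatory and inhibitory receptors 22 of 28 were above 0, with a median of 0.26. Ctla4, the inhibitory counterpart of CD28, was at 11.09, 10.92, 10.63 and 10.63 in WT_CD3 and at 9.78, 9.28, 10.36 and 10.52 in KO_CD3. With anti-CD28 it stood at 11.35, 11.17, 11.57 and 11.70 in wild type and at 11.20, 11.27, 11.65 and 11.74 in knockout. Replicates 1 and 2 of KO_CD3 were the lowest arrays, and the effects of 0.63 and 1.48 differed by 0.85 (SE 0.31, 95% interval 0.20 to 1.5, limma adjusted p = 0.905). With replicates 1 and 2 alone it was 1.45 and was called (limma adjusted p = 0.0168). The transferrin receptor Tfrc, which takes up iron, differed by 0.61 (SE 0.21) and Il2ra, which encodes CD25, by 0.57 (SE 0.27). Cd28 itself had effects of -0.36 and -0.32 and differed by 0.05 (SE 0.22). Tnfrsf4, the costimulatory receptor OX40, differed by 0.69 (SE 0.37) and Icos, a CD28 family member, by 0.38 (SE 0.29), with both intervals reaching below 0.

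Feedback and survival genes gave a mixed picture. Spry1, an inhibitor of ERK signalling, was among the genes that CD28 lowered, with effects of -1.14, -1.20, -1.29 and -1.16 in wild type and -0.47, -0.44, -0.64 and -0.44 in knockout. The sets of 4 were apart, and the difference was 0.70 (SE 0.15, 95% interval 0.38 to 1.03, limma adjusted p = 0.905). Its level was 9.05, 8.81, 9.29 and 8.98 in WT_CD3 and 8.34, 8.11, 8.31 and 8.08 in KO_CD3, and 7.61 to 8.0 in all WT_CD3CD28 and 7.65 to 7.87 in all KO_CD3CD28 arrays. Rgs1, which ends G protein signals, differed by 1.26 (SE 0.36, adjusted p = 0.905), with KO replicate 4 below WT replicate 4. The survival factor Bcl2l1 differed by 0.08 (SE 0.45) and the early response factor Egr2 by 0.22 (SE 0.25). The list of NFAT, EGR, NR4A and AP-1 factors, which act downstream of calcium and MAP kinases, had 18 of 24 genes above 0 with a median of 0.21. NF-kB factors and targets had 12 of 16 above 0 (median 0.11), proximal T cell receptor signalling genes 13 of 19 (0.08) and the BCL2 family 8 of 14 (0.03). In the T cell receptor list 0 genes had an unadjusted limma p under 0.05 with a difference above 0 and 2 below it. These were Trat1 at -0.67 (SE 0.24) and Themis at -0.38 (SE 0.18). In the NF-kB list there were 0 above and 1 below, Cflar at -0.28 (SE 0.12). Of all genes 3.22% and 2.06% had such a p above and below 0.

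**Figure D4:**
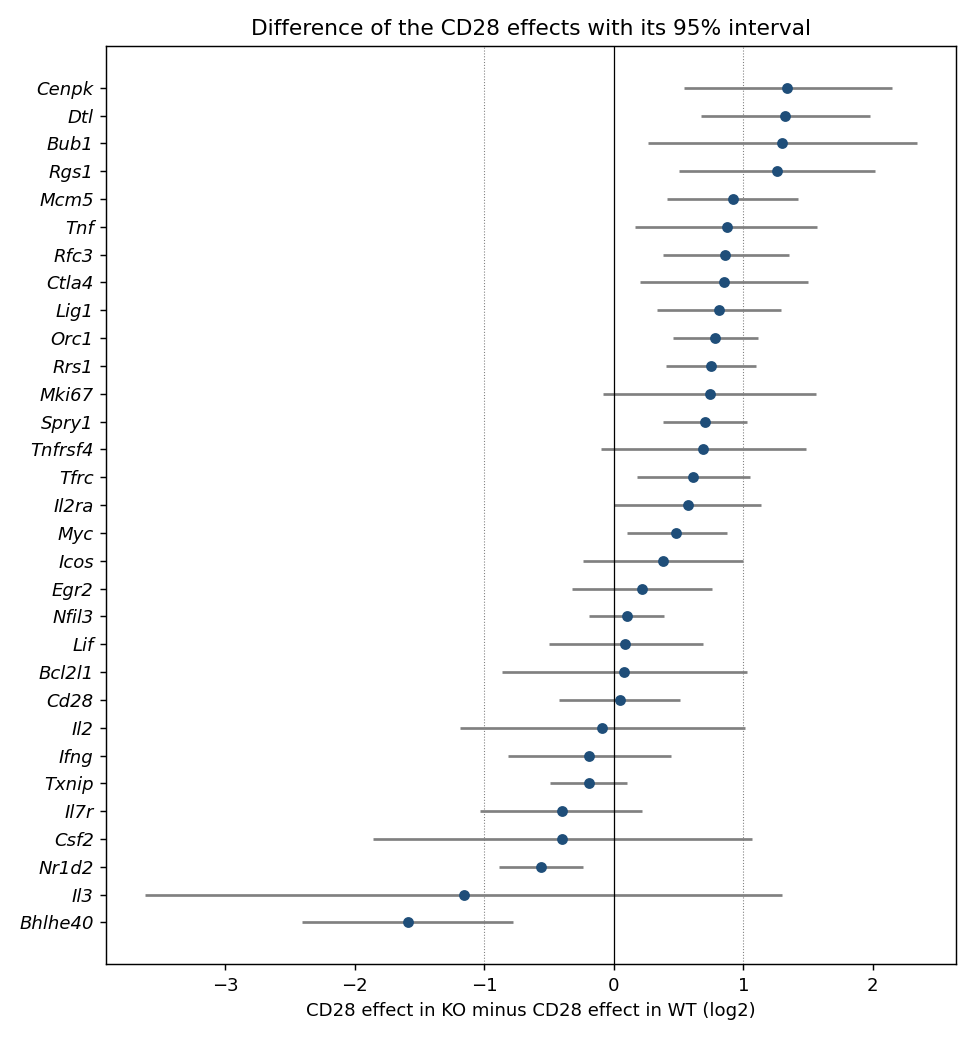
Difference of the CD28 effects, knockout minus wild type (horizontal axis, log2), for 31 genes, with points for the limma estimate and bars for its 95% interval, which is not adjusted for the number of genes. Dotted lines mark a 2-fold difference. Orc1, Mcm5, Dtl and Cenpk lie above 0, Bhlhe40 below it, and the intervals of Il3, Csf2 and Il2 are among the widest.

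Genes that go down on activation, and those of the clock in which Dec1 is known to act, had list medians near 0. Of 29 naive and quiescence genes 24 were below 0, with a median of -0.08 and effects of -0.92 and -0.98. The median was -0.03 with each array centred on its median, where 9 were above 0, and -0.16 after quantile normalization, and with replicates 3 and 4 alone 14 of the 29 were above 0. Il7r, the IL-7 receptor chain of resting cells, differed by -0.40 (SE 0.29) and the glucose uptake inhibitor Txnip by -0.19 (SE 0.14). The 17 circadian clock genes had a median of -0.01, which was 0.03 with each array centred on its median. Nr1d2, a nuclear receptor that represses clock genes, had the smallest p of the list, with effects of -0.24, 0.04, -0.40 and 0.00 in wild type and -0.63, -0.75, -0.71 and -0.77 in knockout. These sets do not overlap, as held in that direction for 2.34% of all genes, and they differed by -0.56 (SE 0.16, 95% interval -0.89 to -0.24, limma adjusted p = 0.905). The widest difference of the list was that of Ciart, a clock repressor, at 0.65 (SE 0.56, 95% interval -0.53 to 1.84). Nfil3, another regulator of the clock, differed by 0.10 (SE 0.14). The 34 interferon-induced genes had a median of -0.01, with 15 above 0, and 0.03 after that centring.

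The levels under each stimulus were set beside the difference, which is made of the same 16 arrays and so shares them. limma called 46 genes higher (0.28%) and 123 lower (0.749%) in knockout under anti-CD3, and 1954 in all when the replicate number was a block. With each array centred on its median the split was 13 higher and 248 lower. The count rested on single arrays, at 7 without WT_CD3 replicate 3 and 452 without KO_CD3 replicate 3. With anti-CD28 the calls were 0 higher and 1 lower (0.00609%), the lower gene being Bhlhe40. Knockout minus wild type was -0.77 and 0.02 for Orc1, -1.03 and -0.11 for Mcm5, -1.32 and 0.01 for Dtl, and -1.46 and -0.11 for Cenpk, without and with anti-CD28. For each of these the genotypes were thus further apart under anti-CD3 alone than with anti-CD28.

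The same held for the lists. Knockout minus wild type had a median of -0.68 under anti-CD3 and -0.07 with anti-CD28 over the replication fork genes, and -0.55 and -0.05 over origin licensing. It was -0.36 and -0.06 over ribosome biogenesis and -0.26 and 0.03 over mitochondrial ribosomal proteins, beside 0.03 and 0.02 over all genes. Cytokines did not follow, at -0.07 and 0.02. Among the cytokines Il3 was further apart with anti-CD28, at -1.28 against -0.12 without it. The order was the same for Bhlhe40, at -3.62 and -2.03.

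**Figure D5:**
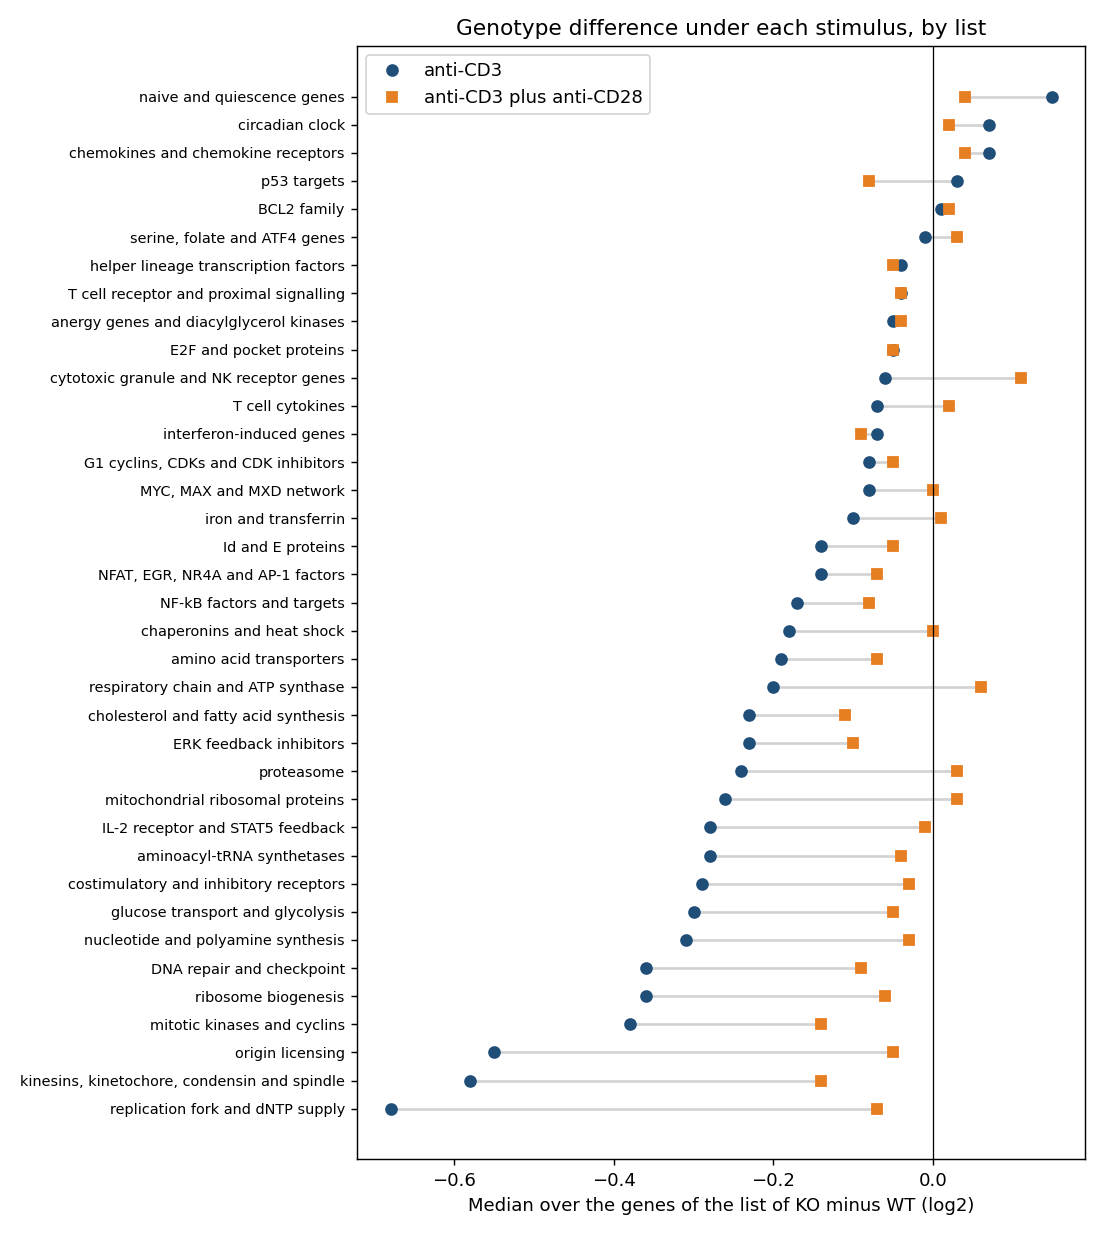
Median of knockout minus wild type over the genes of 37 lists (horizontal axis, log2), under anti-CD3 (blue circles) and under anti-CD3 plus anti-CD28 (orange squares), ordered by the former. Replication, mitosis and biosynthesis lists lie left of 0 under anti-CD3, down to -0.68, and between -0.14 and 0.06 with anti-CD28.

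Replicate numbers divided the response. In the deviations of the arrays from their group means, a first principal component with 39.6% of the variance placed replicates 1 and 2 of each group opposite replicates 3 and 4. The labels name no batch for this, and its part in the results was not tested. With replicates 1 and 2 alone limma called 80 genes for the difference, 74 higher (0.45%) and 6 lower (0.0365%), and with replicates 3 and 4 alone 0, with 429 genes at an unadjusted p under 0.05. Each of those fits rests on 2 arrays a group. The median over the replication fork genes was 0.70 in the former and 0.52 in the latter, with 27 and 28 of 29 above 0. Over origin licensing it was 0.59 and 0.34, and over ribosome biogenesis 0.32 and 0.30.

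After this split had been seen, 2 further fits were made. A term for the set of replicate numbers and its product with the stimulus gave 16 calls (0.0974%), 13 higher and 3 lower. Taking the difference within each replicate number, as 4 values tested against 0, gave 15 (0.0913%), 14 higher and 1 lower. That second fit matches wild-type and knockout samples by number alone, and no label pairs them. In numbers 1, 2 and 4 the matched samples differed in Xist, the RNA of the inactive X chromosome, high in 1 genotype and low in the other. The 2 fits shared 5 genes, 31.2% of the former list and 33.3% of the latter: Bhlhe40, Dtl, Cenpk, the cold shock protein Ybx3 and the surface receptor Slamf7. Adjusted p-values for Dtl were 0.0248 and 0.0325 and for Cenpk 0.00122 and 0.0325. Of the 16, 11 (68.8%) were also among the 80 genes of replicates 1 and 2, and of the 15, 14 (93.3%). Those are 13.8% and 17.5% of the 80, and the fits share arrays.

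Markers of other cells were looked at beside these results. Of the defining T cell genes, Cd4 was at 10.95 to 11.34 and Cd3e at 11.36 to 12.20 in group means. Mean levels of the 11 T cell identity genes lay between 10.57 and 11.24 on all arrays. Their median difference of the CD28 effects was 0.17 (9 of 11 above 0). Trat1, with the smallest p of that list, lay below 0 at -0.67 (SE 0.24, limma adjusted p = 0.905). The B cell receptor chain Cd79a was near background in all 4 groups, as was the macrophage receptor Csf1r, and the CD8 chain Cd8b1 stood above background at 8.67 to 9.53. Many genes listed with Cd79a and Csf1r were brighter. Of the 14 tested for B cells, only 4, 7, 6 and 7 were that dim in WT_CD3, WT_CD3CD28, KO_CD3 and KO_CD3CD28. Of the 21 tested for myeloid and dendritic cells, 8, 10, 8 and 10 were. The mean of 14 B cell markers was 6.79 to 6.93 in WT_CD3, 6.27 to 6.42 in WT_CD3CD28, 6.76 to 7.09 in KO_CD3 and 6.40 to 6.51 in KO_CD3CD28, with a median difference of the CD28 effects of 0.05 (8 of 14 above 0). That of 21 myeloid and dendritic cell markers was 7.01 to 7.10, 6.59 to 6.68, 6.93 to 7.30 and 6.6 to 6.72, with a median difference of -0.01 (10 of 21 above 0), or 0.03 with each array centred on its median. Erythroid and platelet markers were at 6.75 to 7.0, 6.72 to 6.98, 6.98 to 7.19 and 6.74 to 6.98, with 0 of 8 above 0 and a median of -0.14. Their part in the results was not tested. In such bulk samples fewer cells of a type and less RNA per cell cannot be told apart.

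Most regulatory T cell markers lay above 0. Of 12 tested, 10 were above 0 with a median of 0.44, and the lowest was at -0.21. The median was 0.75 with replicates 1 and 2 alone and 0.13 with replicates 3 and 4, where 7 of 12 were above 0. Averaged over the list, the difference was 0.45, 0.73, -0.06 and 0.58 in replicate numbers 1 to 4. The mean level of these markers was 8.78 to 9.04 in WT_CD3, 8.42 to 9.22 in WT_CD3CD28, 8.31 to 8.69 in KO_CD3 and 8.63 to 8.96 in KO_CD3CD28. Ctla4 and Il2ra are in this list and are also raised in activated conventional T cells. Foxp3, the factor that defines the lineage, was above background in all groups and differed by 0.32 (SE 0.27, 95% interval -0.24 to 0.88). The actin-capping protein Capg differed by 1.08 (SE 0.36, adjusted p = 0.905), with an effect of 0.41 in KO replicate 4 against -0.69 to -0.62 in the other three. Cells had been sorted as CD25- before the 24 h of activation. The part of regulatory T cells in the results was not tested.

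Xist, the RNA of the inactive X chromosome, was high in WT replicate 1 and KO replicates 2 and 4 under both stimuli (10.44 to 11.36) and low on the other arrays (5.09 to 5.80). Kdm5d, a gene of the Y chromosome, was at 5.69 to 6.15 on the former and 9.62 to 10.12 on the latter, so the arrays of each genotype do not all come from 1 animal. With its level and its product with the stimulus in the fit, 0 genes were called for the difference, 609 had an unadjusted p under 0.05, and the replication fork median was 0.58 with 28 of 29 above 0.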

How the data were processed

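RNA from 16 samples was hybridised to Affymetrix mouse arrays. The authors deposited log2 signals normalized by RMA, per the submitters' processing notes, in which no version is given. RMA fits probe effects and forces all arrays to one distribution of probe intensities, so a shift of most genes in one direction would be reduced, and low signals are compressed, which makes a change from near background a lower bound. Array medians nevertheless ran from 6.64 to 6.97. No source used here names the array's genome build.

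Probes were named from the platform annotation: 21789 of 35556 had 1 gene symbol, 1621 had several and 12146 had no row. Of the former, 21698 matched a RefSeq gene ID, and no symbol changed. Probes above the 25th percentile of their array on at least 4 arrays were kept (17930), and for the 861 genes with several the brightest on average was used, which left 16427 genes. limma 3.58.1 in R 4.3.3 fitted 1 mean per group to all 16 arrays (lmFit and eBayes, 12 residual and 4.92 prior degrees of freedom), with Benjamini-Hochberg adjusted p under 0.05 as the threshold. The fit was tested on simulated data. Python 3.11.15 and matplotlib 3.10.9 drew the figures. Arrays give no counts, and their number limits the precision.

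The main fit has no replicate block. Same-numbered arrays deviated together from their group means, with correlations of 0.16 to 0.59 over all 4 pairs of groups. The deviations also followed the set of replicate numbers, which can give such correlations without any pairing. The correlations therefore cannot show whether the numbers pair the samples. The labels state no pairing.

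Genes were picked by rule. The 15 with the largest difference in each direction among those called were taken, which gave 0. The 2 with the smallest p of each of 44 lists and a panel of 20 were added. Not every gene so picked is given above, and those left out lie on both sides of 0. Examples are Itga4 at -0.51, Gadd45a at -0.43 and Klf6 at -0.39, and Wee1 at 0.79, Ccr4 at 0.74 and Il2rb at 0.65. Dtl, Ybx3, Slamf7, Ciart and Il13 were named besides, after their values were seen, and Foxp3, Cd4, Cd3e, Cd79a, Csf1r and Cd8b1 as defining markers. The members, lists and panel were chosen with earlier results of these data known. Of 973 listed genes, 72 had no probe of that symbol alone and 32 were too dim. Alternatives changed the scaling, filter, probe choice, variance model, array weights, replicate block and covariates, and left out arrays.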

Additional observations from a re-analysis of the deposited data

Results flagged for a closer look

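The 4 CD28 effects of each genotype were examined for a lone value, and in 13 of 312 sets of 4 the gap of 1 value to its nearest neighbour took up more of the range than Dixon's 95% critical value allows. Chance gives about 1 in 20 such sets. All values are log2 effects.

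In WT replicate 3 the effect was lower than in the other three for 5 genes. It was 1.01 for E2f3, against 2.22 to 2.32, and 2.46 for Bub1, against 3.78 to 3.85. For Dtl it was 1.01, against 1.73 to 1.8, and for the nuclear pore gene Nup43 0.56, against 1.00 to 1.07. For the heme oxygenase Hmox2 it was -0.24, against 0.06 to 0.12. Replicate 3 of WT_CD3 was also the array whose removal brought the calls between genotypes under anti-CD3 to 7.

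Myc stood at 0.87 in WT replicate 4, against 0.52 to 0.55. The BCL2 family member Hrk was at -0.33 in WT replicate 1, against -0.06 to -0.04, and at -0.34 in KO replicate 2, against -0.24 to -0.22. In KO replicate 1 the interferon-induced GTPase Gbp5 was at 0.82, against 1.69 to 1.83, and the surface receptor Crtam at -1.48, against -0.97 to -0.93. Capg was at 0.41 in KO replicate 4, against -0.69 to -0.62. In KO replicate 3 Slfn10-ps, a pseudogene, was at 0.10, against -0.06 in the others, and the mean over amino acid transporters was 0.18, against 0.41 to 0.45.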

How the results depend on the processing

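The number of genes called for the difference of the CD28 effects was 0 under median centring, quantile normalization, no filter, a stricter filter, every probe, trended robust variances, array weights, the replicate block, a random block, the Xist covariate, replicates 3 and 4 alone and each of 16 fits without 1 array. At an unadjusted p under 0.05 these fits held from 429 to 1642 genes. It was 1 with the replicate block within genotype, 80 with replicates 1 and 2 alone and, in fits chosen after seeing the data, 16 with the set of replicate numbers and its product with the stimulus and 15 with the replicate block with stimulus and genotype terms. The calls between genotypes under anti-CD3, 169, became 261 under median centring, 597 with array weights, 1954 with the replicate block, 1388 with replicates 1 and 2 alone, 0 with replicates 3 and 4 alone (limma, 2983 genes at an unadjusted p under 0.05) and 12 with Xist as a covariate, and 7 to 452 without 1 array. With anti-CD28 they were 2 with replicates 1 and 2 alone. The CD28 calls with replicates 3 and 4 alone were 2650 in wild type and 2896 in knockout. The plain replicate block changed no other call count by more than 1.5 times. The cause was not tested, though fits on 2 arrays a group have fewer samples. Differences near 0 changed sign: Cd28 under quantile normalization (-0.02) and replicates 3 and 4 alone (-0.07), Il2 with array weights (0.01), and, with replicates 3 and 4 alone, Ifng (0.03), Bcl2l1 (-0.25) and Nfil3 (-0.08). Without 1 array, or both of 1 replicate number, Cd28 ran from -0.04 to 0.18, Il2 from -0.46 to 0.24, Ifng from -0.33 to 0.06, Bcl2l1 from -0.17 to 0.31, Lif from -0.14 to 0.26 and Csf2 from -0.79 to 0.02. Without a replicate number of 1 genotype under both stimuli (chosen after seeing the data) the values that changed sign were, for Il2, 0.09, 0.19, 0.12 and 0.14, for Cd28 -0.01, for Lif -0.02 and -0.14, and for Bcl2l1 -0.03, -0.08 and -0.07. Without KO_CD3CD28 replicate 2 Il2 was at -0.37. Probes not above background give bounds only.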

Other observations

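Among the genes called in 3 or more of the 4 fits that made any call were Ybx3 and Slamf7. When all arrays were fitted by group, Ybx3 differed by 1.01 and Slamf7 by 0.85 on the log2 scale, and neither was called. Both had the larger CD28 effect in knockout in 4 of 4 replicate numbers, as did 10.6% of all genes. The fit within replicate numbers, which helped to select them, tests those same 4 differences, so this is no separate evidence. With replicates 1 and 2 alone, limma called higher 11 of 41 kinesin, kinetochore, condensin and spindle genes, 7 of 29 replication fork and dNTP supply genes and 6 of 25 origin licensing genes, where 0.45% of all genes were called higher.

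Among probes outside the gene analysis, with several symbols or none, limma called 0 of 9807 for the difference of the CD28 effects. The smallest adjusted p was 0.388, and 497 had an unadjusted p under 0.05.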
